A study of Homo sapiens with 6 samples.

Results

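The mRNAs described here encode the proteins of the small subunit of the cytosolic ribosome. They were chosen by name from the deposited count table, as protein-coding genes called RPS followed by a number, with an optional A or X, plus RPSA and FAU. This gave 32 of the 60648 genes of the table. The cells were of the line A549, from a human non-small cell carcinoma of the lung, which spent 2 h in complete medium or in medium for amino acid starvation. All cells received cycloheximide for 5 min, which holds elongating ribosomes on the mRNA. The 3 conditions were control shRNA (genotype label WT) starved, METTL16 shRNA starved, and the METTL16 shRNA line in complete medium, called the fed knockdown below. METTL16 is an RNA methyltransferase that acts on U6 snRNA and MAT2A mRNA. The labels do not say whether the knockdown line is a single clone, and no fed cells with control shRNA were analysed here.

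Each condition gave 1 library of fragmented input RNA and 1 library of footprints, the stretches of mRNA that ribosomes protect from RNase I. Total counts ran from 465303 to 775676 in input RNA and from 518955 to 781831 in footprints. With 1 library per condition and assay there is no replicate spread, so no p-value is given and each difference is one between single libraries. The 95% intervals in parentheses cover counting error only and treat each read as independent. Several PCR reads can come from one molecule and no molecular identifiers are named, so the intervals may be too narrow. Values are given as CPM, counts scaled to a common TMM-adjusted library total, or as log2 ratios of such values. Translation efficiency is the ratio of footprint CPM to input CPM. A gene was measured if its counts averaged 30 or more in the 3 libraries of the assay, or of both assays for translation efficiency. It was called higher or lower if the difference reached 2-fold and its interval did not include 0. All values are relative to the other genes of the library, so a difference shared by all mRNAs would not appear.

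METTL16 had 44 input counts under control shRNA, and in the knockdown 9 when starved and 19 when fed. The 6 markers of A549, epithelial keratins and NRF2 targets (KRT8, KRT18, KRT7, NQO1, AKR1C1 and AKR1B10) had 77 to 1988 counts in every library. Of the markers of other cells, PTPRC, HBB and PECAM1 were at 0 in all 6 libraries, COL3A1 had at most 1 count, COL1A1 1 to 14 and LUM 1 to 19.

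The small subunit reads the mRNA. Its head and body close around the message, the decoding centre lies between them, and the platform faces the exit of the mRNA channel. Most mRNAs of ribosomal proteins begin with a 5′ terminal oligopyrimidine (TOP) tract, a C at the cap followed by a run of pyrimidines, which the repressor LARP1 binds. The kinase mTORC1, active when amino acids are plentiful, keeps LARP1 from the cap, so that cells make ribosomes when nutrients allow.

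The transcript starts listed by RefSeq (GRCh38.p14) were read to see which members carry such a tract. Of the 32 members, 25 had an entry in the RefSeq promoter table, with 28 starts among them. A TOP start was counted where the first base is C and at least 4 further pyrimidines follow without a break, on the transcribed strand only and at any listed start of the gene. By that rule 19 of 25 members (76.0%) had a TOP start, against 28 of 38 large-subunit protein genes (73.7%), 3 of 31 mitochondrial small-subunit protein genes (9.68%), 226 of the 2333 protein-coding genes with an entry that were measured in translation efficiency (9.69%) and 5.14% of all 27305 genes of the table. The first 20 transcribed bases, with the tract in capitals, are shown for members whose values are described in full or lie at the ends of the range below.
RPSA, chr3:39406720-39406739, plus strand: CTTTTCCgtgctacctgcag
RPS12, chr6:132814569-132814588, plus strand: CTCTTTCCCTgccgccgccg
RPS27A, chr2:55232688-55232707, plus strand: CTTTTCgatccgccatctgc
RPS6, chr9:19380217-19380236, minus strand: CTCTTTTCCgtggcgcctcg
RPS13, chr11:17077648-17077667, minus strand: CCTTTCgttgcctgatcgcc
RPS14, chr5:150449720-150449739, minus strand: CTCTCTTTCCggtgtggagt
FAU, chr11:65122115-65122134, minus strand: CTCTTTCTCgactccatctt
The tract is 7 bases long in RPSA, 10 in RPS12 and RPS14 and 9 in RPS6 and FAU. The start shown for RPS27A is the most downstream of 3 listed, and the other 2 carry no tract by this rule. RPS7, RPS4X, RPS15, RPS29, RPS26 and RPS28 had an entry without a TOP start, and 4 of these are shown because they lie at both ends of the response to starvation.
RPS7, chr2:3575260-3575279, plus strand: ctcgcgctgtttccgcctct
RPS4X, chrX:72277229-72277248, minus strand: aatttctacgcgcaccggaa
RPS15, chr19:1438396-1438415, plus strand: caaagcgatctcttctgagg
RPS29, chr14:49598691-49598710, minus strand: tggcagcggtggttgtttct
A listed start is one annotated position. Which starts A549 cells used was not measured here.

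The members together had 9065 input counts under control shRNA, 6935 in the starved and 9954 in the fed knockdown. These are 1.69% (exact Clopper-Pearson interval 1.65% to 1.72%), 1.49% (1.46% to 1.53%) and 1.28% (1.26% to 1.31%) of all counts. In footprints they had 4820, 2377 and 7071 counts in the same order, or 0.617% (0.599% to 0.634%), 0.458% (0.440% to 0.477%) and 0.993% (0.971% to 1.02%). The share of footprints was thus highest in complete medium, where the share of input RNA was lowest. Of the counts of nuclear protein-coding genes alone, which leaves out small RNAs and mitochondrial transcripts, the members held 2.04%, 1.94% and 1.66% in input RNA and 0.780%, 0.711% and 1.51% in footprints. The order of the 3 conditions is the same with either denominator. In bulk libraries such as these, fewer cells with a transcript and less of it per cell cannot be told apart.

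**Figure D1:**
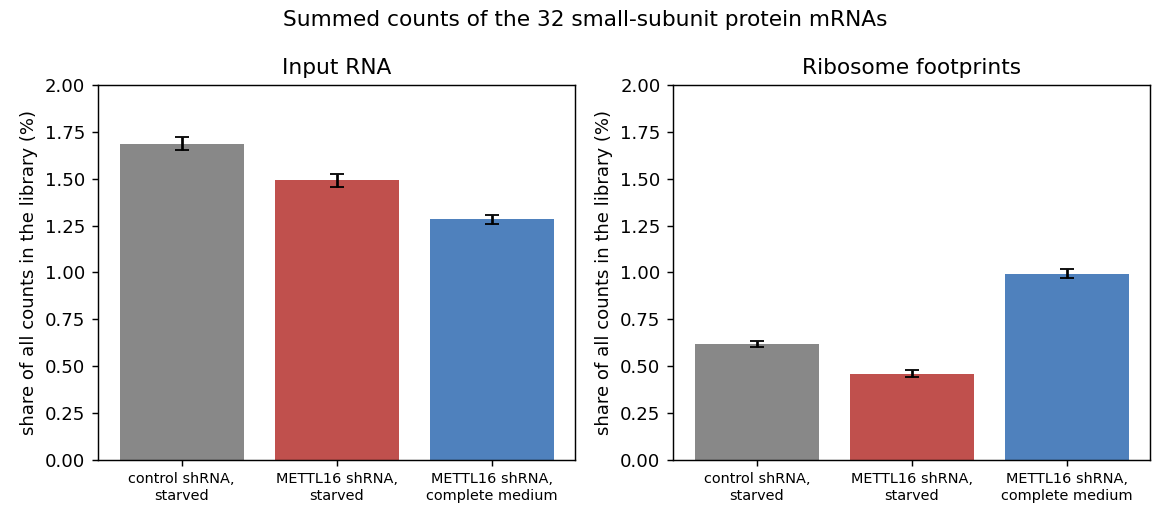
Share of all counts of a library (percent, vertical axes) held by the 32 small-subunit protein mRNAs, in input RNA and in footprints. Bars are single libraries, 1 per condition, and whiskers are exact 95% counting intervals. Footprints in complete medium (0.993%) stand above both starved libraries, whereas input RNA in complete medium (1.28%) stands below both.

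RPS19, RPS16 and RPS6 had the most input counts of the members in each library, and RPS16 and RPS19 the most footprint counts. The 3 members with the most counts held 28.4% to 36.6% of the members' counts in each library. RPS19 is the gene most often mutated in Diamond-Blackfan anaemia, RPS16 reaches with its tail toward the tRNA in the peptidyl site, and RPS6 is the substrate that gives the S6 kinases their name.

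Of the 32 members, 30 passed the count minimum in input RNA and 27 in footprints and translation efficiency. RPS10 had 1 count in all 6 libraries together, while 20 counts were assigned to its 12 listed pseudogenes and 0 to the RPS10-NUDT3 readthrough gene. RPS3A had 27, 34 and 43 input counts (starved control, starved knockdown, fed knockdown, the order used throughout) and 13, 4 and 16 footprint counts, beside 50 counts over its 53 pseudogenes. RPS10 thus had fewer counts than its pseudogenes, while RPS3A had 137 in all against the 50. RPS28 had 54, 42 and 80 input counts with 11, 6 and 5 footprint counts, and RPS15A had 41, 24 and 57 with 27, 20 and 41. Small-subunit pseudogenes, 470 in the table, took 1.28% to 2.94% of the counts of members and pseudogenes together. How reads that match a gene and its processed copies alike were counted is not given in the sources used here, so the levels of genes with many copies, such as RPSA with 75 pseudogenes, are uncertain.

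Starved and fed cells of the METTL16 knockdown were compared first. Relative to the typical gene, small-subunit protein mRNAs had slightly more input RNA and fewer footprints in starved cells. Their median log2 ratio in input RNA was 0.12 over 30 members, against 0.01 over all 3876 genes measured, and 9 of the 30 lay below 0, against 49.4% of all genes. RPS12 alone was called higher, where 3.02% of all genes measured were, and 0 were called lower, against 4.15% of all genes. In footprints the median was -1.31 over 27 members, against 0.01 over 3431 genes. All 27 lay below 0, against 49.3% of all genes, and all 27 intervals did, against 19.2%. Of these, 19 of 27 were called lower, against 6.73% of all genes. The members' values ran from -2.73 in RPSA to -0.38 in FAU, and 0 were called higher, against 5.39% of all genes.

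Translation efficiency had a median of -1.39 over the 27 members, with quartiles of -1.86 and -1.03, against 0.06 over 2866 genes. In this measure 20 of 27 members were called lower, against 9.56% of all genes, and 0 were called higher, against 6.91%. FAU and RPS29 were the 2 members whose interval reached 0. Summed over the 32 members, footprint counts were lower after scaling in the starved knockdown, with a log2 ratio of -1.14 (-1.21 to -1.07), and input counts were higher by 0.20 (0.16 to 0.25). The ratio of the sums was 2.53-fold lower, at -1.34 (-1.42 to -1.26).

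**Figure D2:**
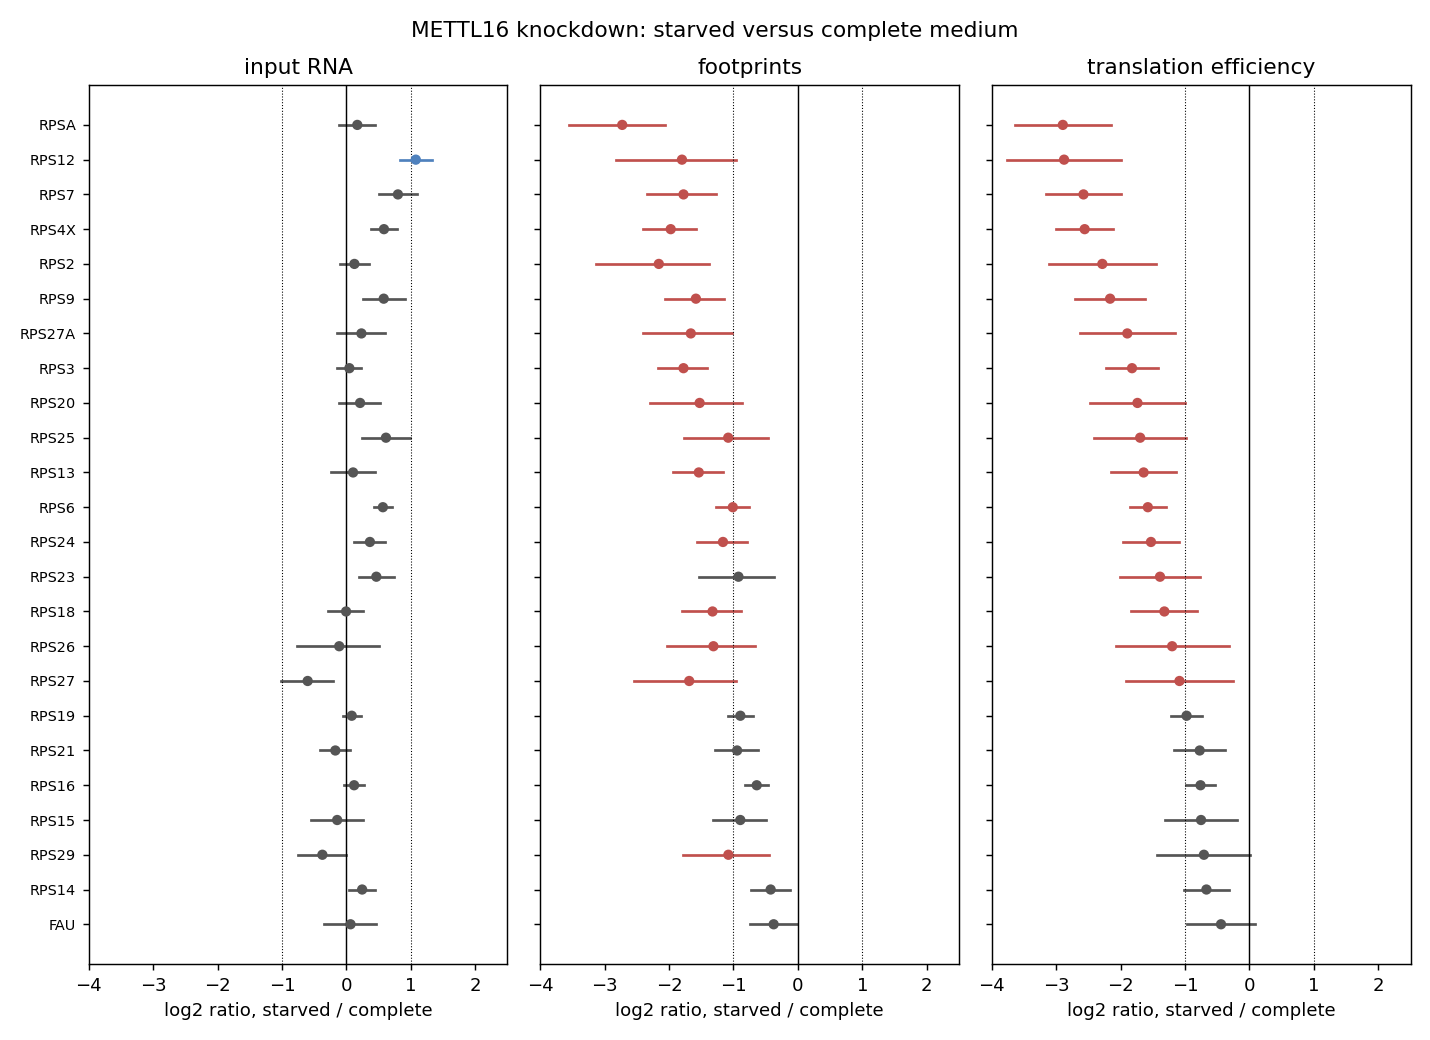
Log2 ratio of the starved to the complete-medium METTL16 knockdown for 24 of the 27 members measured in translation efficiency, in input RNA, footprints and translation efficiency. Points are ratios of single libraries, lines are 95% counting intervals, dotted lines mark 2-fold, and called members are red (lower) or blue (higher). All 24 points lie left of 0 in the footprint panel, whereas the input RNA points lie on both sides of 0.

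The members of the body and platform had a median translation efficiency ratio of -1.46, with 13 of 16 called lower, against 9.56% of all genes. RPSA, the most negative, carries the name of the laminin receptor once described for it and sits on the solvent side of the subunit. It lies on chromosome 3 at 39406720 to 39412542 (GRCh38, ENSG00000168028.14). Its input RNA stood at 298 CPM in the starved control, and in the knockdown at 386 starved and 343 fed. Its footprints stood at 70.4, 37.4 and 254 CPM, from 65, 18 and 165 reads. The 2 knockdown inputs are within counting error of each other, with a log2 ratio of 0.17 (-0.12 to 0.45), while footprints were 6.62-fold lower in starved cells, at -2.73 (-3.55 to -2.06). The translation efficiency ratio was -2.90 (-3.64 to -2.15), and 5 of the 2866 genes lay below it.

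RPS7 (ENSG00000171863.15, chromosome 2, 3575260 to 3580920) is known for binding MDM2 when ribosome assembly is disturbed. It stood at 329, 421 and 242 CPM in input RNA and at 103, 76.9 and 266 CPM in footprints, in the same order of conditions. Starved cells of the knockdown thus had more of its RNA, by 0.80 (0.50 to 1.10), and fewer footprints, at -1.78 (-2.34 to -1.27). Its translation efficiency ratio was -2.58 (-3.16 to -1.99).

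RPS4X (ENSG00000198034.11, chromosome X, 72272042 to 72277248) is the X-linked copy of a gene that also has Y-linked copies. Its input values were 880, 869 and 580 CPM, and its footprint values were 148, 127 and 502 CPM. Both starved libraries are high in input and low in footprints beside complete medium. The log2 ratios of starved to complete medium were 0.58 (0.38 to 0.78) in input RNA and -1.97 (-2.40 to -1.59) in footprints, with -2.56 (-3.00 to -2.12) in translation efficiency. RPS7 and RPS4X are among the 4 most negative members although neither has a TOP start in the table.

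RPS2 (ENSG00000140988.16, chromosome 16, 1962058 to 1964826) lines the channel by which the mRNA enters. Its input values were 749, 595 and 546 CPM and its footprint values 29.2, 29.1 and 134 CPM. Its footprints in the starved knockdown come from 14 reads, and the footprint ratio was -2.16 (-3.13 to -1.38). RPS6 (ENSG00000137154.13, chromosome 9, 19375715 to 19380236) stood at 1469, 1676 and 1131 CPM in input RNA and at 342, 380 and 768 CPM in footprints. Its interval is narrow because of its many reads, with ratios of 0.57 (0.42 to 0.71) in input RNA, -1.01 (-1.27 to -0.77) in footprints and -1.58 (-1.86 to -1.30) in translation efficiency. Among the other body and platform members called lower, RPS9 was at -2.16 in translation efficiency, RPS13 at -1.64, RPS24 at -1.53, RPS23 at -1.39 and RPS26 at -1.20.

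RPS27, a zinc-binding protein of the platform, had values of 135, 159 and 242 CPM in input RNA and 20.6, 37.4 and 123 CPM in footprints. It was the lowest member in the input RNA ratio, at -0.60 (-1.02 to -0.21). Its footprint ratio of -1.69 (-2.54 to -0.97) therefore gave a translation efficiency ratio of -1.09 (-1.91 to -0.26), nearer to 0 than that of members with a like footprint ratio, such as RPS7.

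The members of the head had a median translation efficiency ratio of -1.32, with 7 of 11 called lower, against 9.56% of all genes. RPS12 (ENSG00000112306.8, chromosome 6, 132814569 to 132817564), a protein of the beak of the head, stood at 572, 697 and 330 CPM in input RNA and at 40.1, 27.0 and 96.9 CPM in footprints. Both starved inputs were above that of complete medium, and its input ratio of 1.08 (0.83 to 1.32) was the highest of the members. The footprint ratio of -1.80 (-2.83 to -0.97) rests on 13 reads in the starved knockdown and 63 in complete medium. The translation efficiency ratio was -2.88 (-3.76 to -1.997).

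RPS27A (ENSG00000143947.15, chromosome 2, 55231903 to 55235853) is made as a fusion of ubiquitin with the ribosomal protein, and is one source of the cell's ubiquitin. It stood at 165, 234 and 199 CPM in input RNA and at 57.4, 47.8 and 154 CPM in footprints. Its ratios were 0.23 (-0.14 to 0.60) in input RNA, -1.66 (-2.41 to -1.02) in footprints and -1.90 (-2.64 to -1.16) in translation efficiency. RPS3, which lies at the mRNA entry, was at -1.82 in translation efficiency, RPS20 at -1.74, RPS25 at -1.70 and RPS18 at -1.32.

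The input interval lay below 0 in 3 members, among them RPS27 and RPS29, where that of 18.7% of all genes did. It lay above 0 in 10 members, among them RPS12, RPS7, RPS25, RPS4X, RPS9, RPS6, RPS23, RPS24 and RPS14, against 17.5% of all genes.

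FAU had the value nearest 0. Its gene (ENSG00000149806.11, chromosome 11, 65120630 to 65122134) encodes a ubiquitin-like protein fused to a protein of the body. FAU stood at 201, 190 and 182 CPM in input RNA and at 297, 206 and 268 CPM in footprints, so the footprints of the starved control were not below those of the fed knockdown. Its ratios of starved to complete medium were 0.06 (-0.34 to 0.46) in input RNA, -0.38 (-0.75 to -0.02) in footprints and -0.44 (-0.97 to 0.09) in translation efficiency, and 708 of the 2866 genes lay below it. FAU and RPS27A are both made as fusions with a ubiquitin-like or ubiquitin domain, and their translation efficiency intervals do not overlap.

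RPS14 (ENSG00000164587.13, chromosome 5, 150442635 to 150449739), a platform protein whose loss underlies the anaemia of the 5q- syndrome, came next. It stood at 772, 807 and 681 CPM in input RNA and at 375, 291 and 391 CPM in footprints. The footprint ratio was -0.42 (-0.73 to -0.12) and the translation efficiency ratio -0.67 (-1.02 to -0.31). RPS29, a zinc-binding protein of the head, stood at 219, 201 and 260 CPM in input RNA and at 78.0, 56.1 and 120 CPM in footprints, and RPS15, which lies at the decoding side of the head, at 266, 179 and 198 CPM and at 142, 143 and 268 CPM. Their translation efficiency ratios were -0.71 (-1.43 to 0.01) and -0.75 (-1.31 to -0.19). RPS16 at -0.76, RPS21 at -0.77 and RPS19 at -0.98 were the other members under 2-fold.

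The presence of a TOP start in the table did not separate the members. The 17 measured members with a TOP start had a median translation efficiency ratio of -1.53, with values from -2.90 in RPSA to -0.44 in FAU and 12 called lower. The 5 measured members with an entry but no TOP start had a median of -1.20, with values from -2.58 in RPS7 to -0.71 in RPS29 and 3 called lower. The 5 measured members without an entry had a median of -1.35, and all 5 were called lower. The 2 classes with an entry thus overlap over most of their range. Of all genes measured, 9.56% were called lower.

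Within each condition the members differed widely in translation efficiency. Gene length cancels in the level, which is log2 of the ratio minus the median of all 2866 genes. No correction was made for the share of a gene that is coding. The median level over the 27 members was -0.31 in the fed and -1.73 in the starved knockdown, with -1.62 in the starved control. Of the 27 members, 9 stood above the median of all genes in the fed knockdown, 1 did when it was starved, and 2 in the starved control. The highest and lowest member were 7.26-fold apart in the fed knockdown, 27.0-fold when it was starved and 37.0-fold in the starved control. The SD over members was 0.72, 1.12 and 1.05 in these conditions, beside 0.82, 0.93 and 0.91 over all genes.

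**Figure D3:**
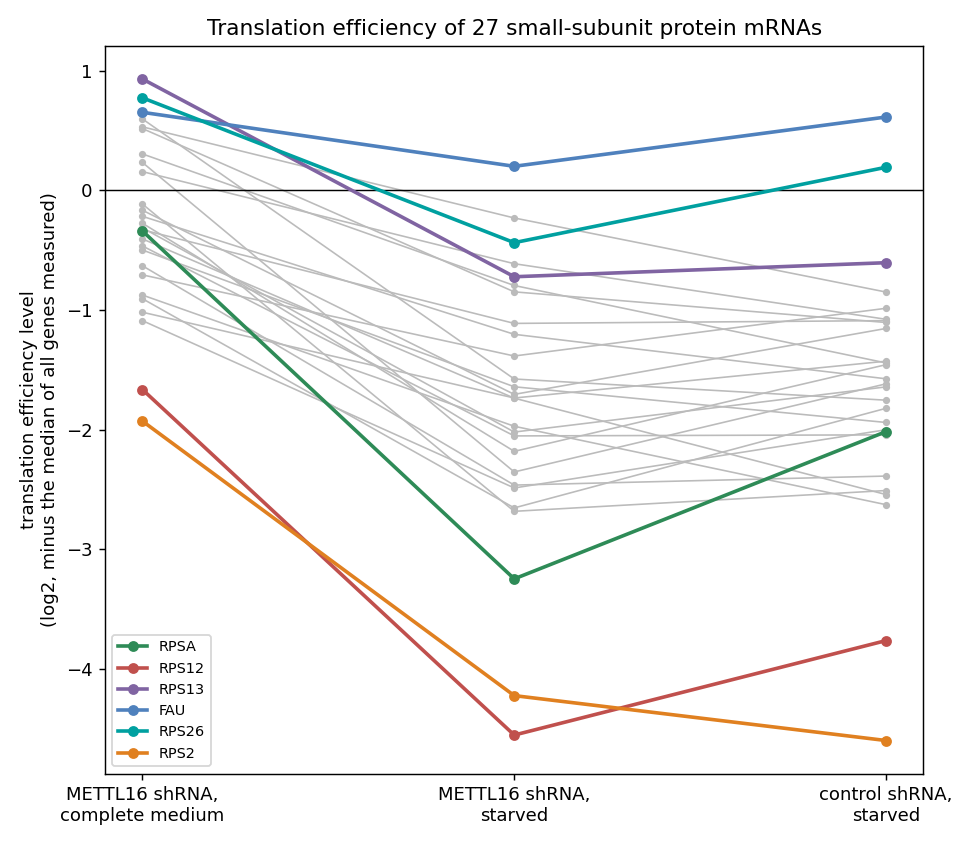
Translation efficiency level (log2, minus the median of all genes measured) of 27 members in the 3 conditions, with 1 line per gene and 6 genes in colour. Each point is from single input and footprint libraries. Levels are lower in both starved conditions, with RPS2 and RPS12 lowest in all 3 and FAU highest in both starved conditions.

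RPS2 and RPS12 were the 2 lowest members in every condition. RPS2 stood at -1.93 (-2.26 to -1.59) in the fed and -4.22 (-4.98 to -3.46) in the starved knockdown, and at -4.60 (-5.15 to -4.04) in the starved control. RPS12 stood at -1.66 (-2.06 to -1.27), -4.55 (-5.34 to -3.77) and -3.76 (-4.25 to -3.27). Their intervals overlap in each condition, and the difference between them was not tested.

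At the other end, RPS13, a protein of the body at the joint with the large subunit, stood at 0.93 (0.66 to 1.20) in complete medium and at -0.72 (-1.14 to -0.30) in the starved knockdown. RPS26, which touches the mRNA upstream of the exit site, stood at 0.77 (0.30 to 1.25), -0.44 (-1.17 to 0.30) and 0.19 (-0.35 to 0.74) in the fed knockdown, its starved counterpart and the starved control. In the same order FAU stood at 0.65 (0.33 to 0.98), 0.20 (-0.21 to 0.62) and 0.61 (0.30 to 0.93). The intervals of RPS13, RPS26 and FAU overlap in complete medium, whereas in the starved control that of FAU lies above that of RPS13. The intervals of neighbours overlap throughout the order in each condition. Across the 27 members the levels of the starved control and the fed knockdown, which share no library, had a Pearson r of 0.789 and a Spearman rho of 0.673. This is a description across genes, which share libraries and are not replicates.

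Starved cells of the knockdown were then compared with starved cells of the control shRNA, which uses the same starved knockdown libraries again. Here the members lay on both sides of 0 in each measure. In input RNA the median was 0.01 over 30 members, against 0.04 over all genes, with 15 above and 15 below 0 (47.2% of all genes lay below). In this measure 0 were called higher, against 5.03% of all genes, and 0 lower, against 4.57%. In footprints the median was -0.05 over 27 members, against 0.01, with 17 below 0 (49.3% of all genes), and 0 were called in either direction, against 3.96% of all genes higher and 3.03% lower. In translation efficiency the median was -0.14, against -0.00, with 17 members below 0 (50.3% of all genes), 1 member called lower (5.48% of all genes) and 0 higher (4.88%). Summed over all members, the log2 ratio was -0.05 (-0.10 to -0.01) in input RNA, -0.08 (-0.15 to -0.01) in footprints and -0.03 (-0.11 to 0.06) for their ratio.

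With total counts in place of TMM, the median of all genes moved from 0.04 to -0.08 in input RNA, from 0.01 to -0.34 in footprints and from -0.00 to -0.23 in translation efficiency. For starved against fed cells it moved from 0.01 to 0.03 in input RNA and in footprints. The values that follow are relative to the TMM scale. The log2 ratio of a single member changes sign with total counts only where it is smaller than the shift and opposite in direction.

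**Figure D4:**
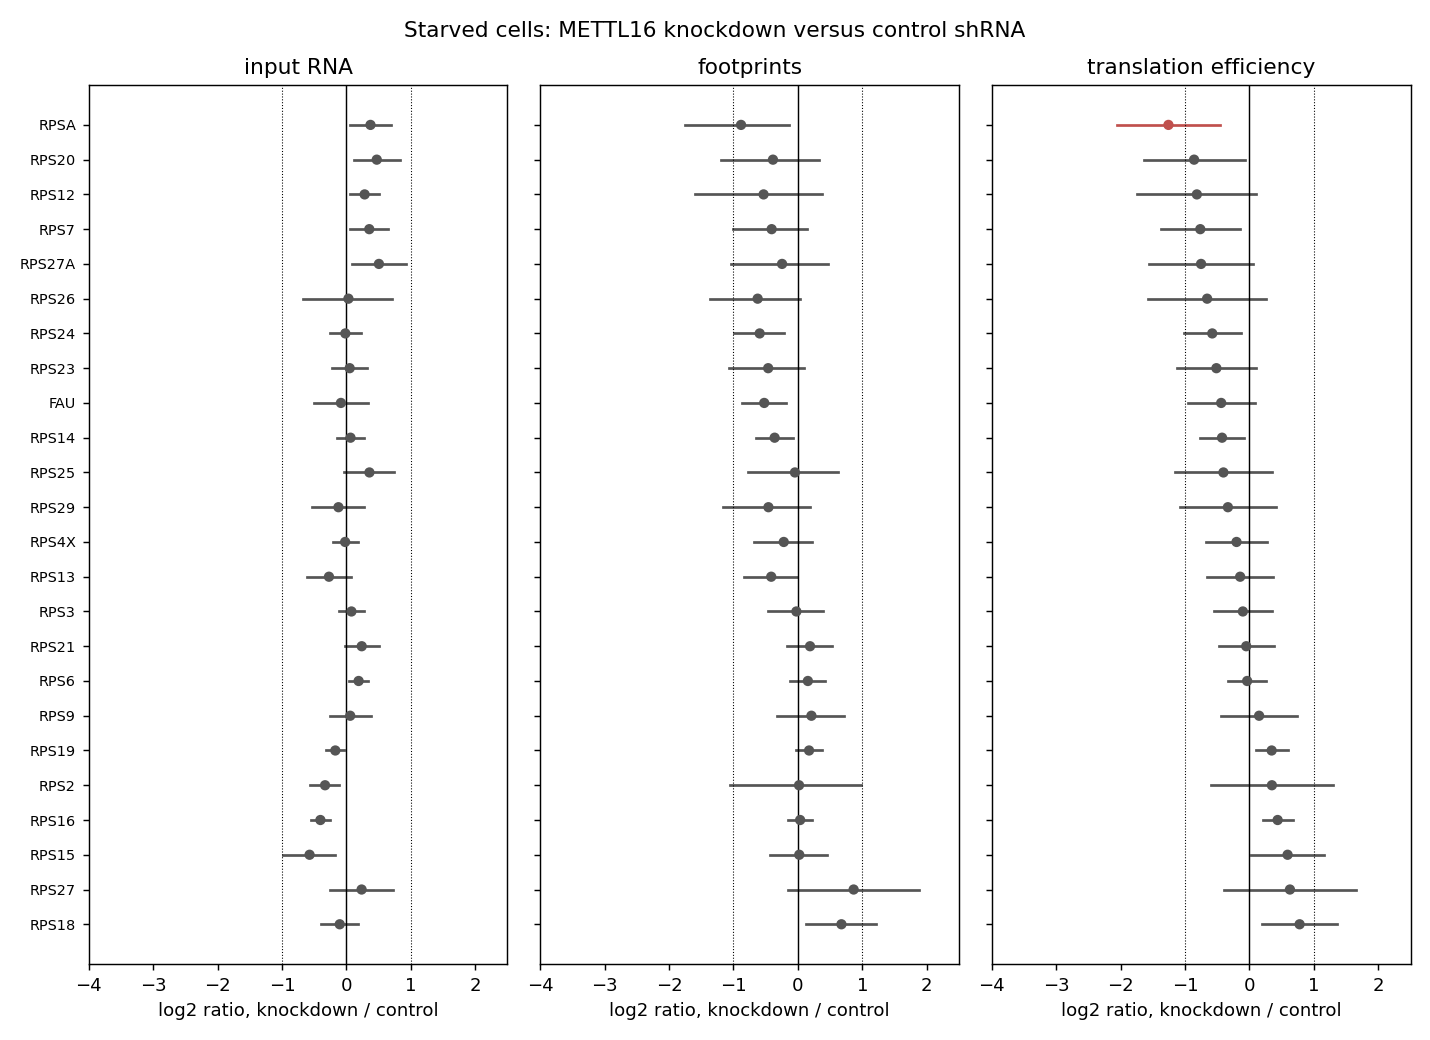
Log2 ratio of the starved METTL16 knockdown to the starved control shRNA for 24 of the 27 members measured in translation efficiency, drawn as in the plot of starved against complete medium. Points lie on both sides of 0 in all 3 panels, and RPSA in translation efficiency is the one called member.

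RPSA was the called member, 1 of 27 measured, where 5.48% of all genes were called lower. From the values given above, its log2 ratio of knockdown to control was 0.37 (0.06 to 0.69) in input RNA, -0.88 (-1.75 to -0.14) in footprints and -1.26 (-2.06 to -0.45) in translation efficiency. It was also called with the input of the fed knockdown in place of the starved one, at -1.09 (-1.88 to -0.29). That setting was planned for the median and applied to single members after the data were seen. Both values use the same footprint counts of RPSA, 65 in the control and 18 in the knockdown, so the second call is not independent of the first. With total counts RPSA was at -1.23 in footprints and -1.48 in translation efficiency, where the medians of all genes were at -0.34 and -0.23.

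Of other members at the low end, RPS12 and RPS7 changed sign with the other knockdown input, while RPS20 and RPS27A did not. The interval of RPS20 included 0 with that input. RPS20, a protein of the head, stood at 224, 311 and 268 CPM in input RNA and at 60.6, 45.7 and 134 CPM in footprints, and its translation efficiency ratio was -0.86 (-1.64 to -0.07), or -0.65 with the other knockdown input. RPS12 was at -0.82 (-1.74 to 0.11) and RPS7 at -0.76 (-1.38 to -0.15), but with the other knockdown input RPS12 was at 0.26 and RPS7 at 0.04. RPS27A was at -0.75 (-1.56 to 0.05), or -0.52. With total counts RPS20 and RPS12 lay past 2-fold as well, at -1.08 and -1.04, where the median of all genes was at -0.23. With the other input, 22 of the 27 members kept their sign and RPS7, RPS12, RPS6, RPS25 and RPS4X did not.

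In input RNA the interval lay above 0 in 6 members (RPS7, RPS27A, RPSA, RPS12, RPS20 and RPS6), against 16.8% of all genes, and below 0 in 6, among them RPS2, RPS15, RPS16 and RPS19, against 14.2%. RPS27A was at 0.51 (0.09 to 0.92). RPS3A, which lies on the platform, had the highest input ratio of the members at 0.66 (-0.11 to 1.45), from 27 and 34 reads. RPS15 was at -0.57 (-0.98 to -0.18).

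In footprints the interval lay above 0 in 1 member, RPS18, against 16.8% of all genes, and below 0 in 5 (RPSA, RPS14, RPS24, RPS13 and FAU), against 13.7%. RPS18, a head protein at the contact with the large subunit, stood at 429, 399 and 401 CPM in input RNA and at 70.4, 112 and 283 CPM in footprints. Its footprint ratio of knockdown to control was 0.68 (0.13 to 1.22), or 0.33 with total counts, and its translation efficiency ratio was 0.78 (0.19 to 1.37). RPS27 had the highest footprint ratio at 0.86 (-0.15 to 1.87), from 19 and 18 reads, and RPS26 was at -0.62 (-1.36 to 0.03). Both of these intervals include 0.

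In translation efficiency the interval lay above 0 in 5 members, among them RPS18, RPS15, RPS16 and RPS19, against 12.9% of all genes, and below 0 in 5 (RPS7, RPSA, RPS14, RPS20 and RPS24), against 12.6%. The 4 named above 0 are proteins of the head, and so is RPS20 among those below 0. The median over the head members was -0.10, with 6 of 11 below 0. Over the body and platform members it was -0.17, with 11 of 16 below 0. RPS15 was at 0.59 (0.02 to 1.16) and RPS16 at 0.44 (0.20 to 0.67). Summed over the members of the head the translation efficiency ratio was 0.18 (0.06 to 0.31), and over those of the body and platform -0.21 (-0.32 to -0.09). With total counts these values were -0.04 and -0.43, so the sign for the head depends on the scaling, and the difference between head and body has no replicate to be tested with. RPS6, the S6 kinase substrate, had an input ratio of 0.19, a footprint ratio of 0.15 and a translation efficiency ratio of -0.04, and in footprints it was at -0.20 with total counts.

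Proteins that act with the small subunit were set beside its members in the comparison of starved with complete medium. The 40 large-subunit protein mRNAs measured (of 47) had a median translation efficiency ratio of -1.50, with 31 called lower, against 9.56% of all genes, and values from -3.24 in RPL7 to -0.32 in RPL29. Their median level relative to all genes was 0.00 in the fed and -1.76 in the starved knockdown, with -1.56 in the starved control, beside -0.31, -1.73 and -1.62 for the small subunit. The interval of the summed ratio was -1.60 to -1.47 for the large subunit and -1.42 to -1.26 for the small subunit. These do not overlap, but they cover counting error only and leave out the spread between genes. The quartiles over members do overlap, at -1.97 and -1.11 for the large and -1.86 and -1.03 for the small subunit. Whether the subunits would differ between replicates was not tested.

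The 17 other TOP mRNAs measured (of 20) are of translation factors and other genes listed for their TOP tract. The list was chosen with earlier results of these data known. Their median was -1.91, and all 17 were called lower, against 9.56% of all genes. Values ran from -4.26 in PABPC1, the poly(A)-binding protein, to -1.19 in NOP53. RACK1, a scaffold for kinases and itself a protein of the small subunit without an RPS name, is among these TOP mRNAs. It was at 0.38 (0.22 to 0.54) in input RNA, -1.48 (-1.68 to -1.28) in footprints and -1.86 (-2.12 to -1.61) in translation efficiency. RACK1 thus lay within the range of the RPS members.

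**Figure D5:**
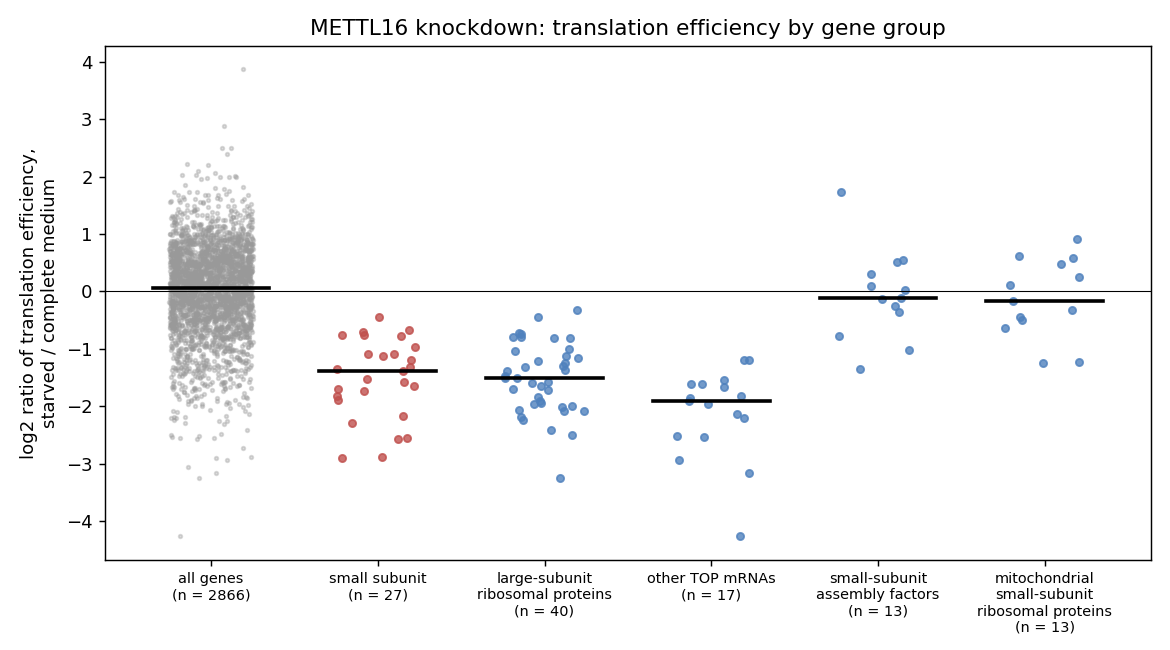
Log2 ratio of translation efficiency, starved over complete medium in the METTL16 knockdown, for all 2866 genes measured and for 5 gene lists. Points are genes from single libraries, spread sideways only to show them, and bars are medians. Both ribosomal subunits and the other TOP mRNAs lie below 0, while assembly factors and mitochondrial small-subunit proteins lie on both sides of 0.

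The mRNAs of small-subunit assembly factors, which process and fold the pre-ribosome but do not remain in it, lay on both sides of 0. Of 42 listed, 13 were measured, with a median of -0.12, 1 called higher and 2 lower, against 6.91% and 9.56% of all genes. NOL6, a nucleolar factor of early assembly, was at 1.72 (0.67 to 2.77) and BYSL, which acts on the platform of the precursor, at -1.35 (-2.49 to -0.22). The 13 measured proteins of the mitochondrial small subunit (of 33), a ribosome of separate origin, had a median of -0.18, with 0 called higher and 2 lower against the same 6.91% and 9.56%, and values from -1.25 in MRPS30 to 0.90 in MRPS12. Of 19 genes of mTORC1, the S6 kinases and TOP mRNA regulators, 7 were measured, with a median of 0.07. Of these, 1 was called higher and 0 lower, against the same 6.91% and 9.56%. The called gene was EIF4EBP1, the repressor of cap-dependent translation that mTORC1 inactivates, at 1.59 (0.65 to 2.52).

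RPS27L, a paralog of RPS27 that p53 induces, lies outside the rule by its name. It had 130, 172 and 214 input counts and 400, 191 and 200 footprint counts. Its translation efficiency ratio of starved to complete medium was -0.04 (-0.45 to 0.37), above that of RPS27 at -1.09 (-1.91 to -0.26). The 2 intervals overlap by a small margin, and the difference between the 2 genes was not tested. In the knockdown against control, both starved, RPS27L was higher in input RNA by 0.74 (0.40 to 1.08) and stood at -0.12 (-0.38 to 0.13) in footprints and -0.86 (-1.27 to -0.45) in translation efficiency.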

How the data were processed

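Per the labels' protocols, input RNA was fragmented chemically, footprints were made with RNase I, with gel selection of fragment size and PCR for both. The authors deposited raw counts per gene and TPM values, which divide counts by gene length. Tools listed in the submitters' processing notes are featureCounts 2.0.1, STAR 2.7.5c, Bowtie2 2.2.5 and cutadapt 2.8, with the build GRCh38, and settings are not given in the sources used here. The authors also deposited a ratio of footprint to input TPM as translation efficiency. Of 60651 records of the count table, 1 broken over 3 lines was left out.

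Counts were scaled with TMM (edgeR 4.0.16, R 4.3.3) over the genes past the minimum, and log2 ratios used a pseudocount of 0.5. Intervals are exact conditional binomial, or Poisson delta method for translation efficiency. Python 3.11.15, scipy 1.17.1 and pandas 2.3.3 were used, and DESeq2 1.42.0 gave alternative size factors. The code was tested on simulated data. Members, gene lists and the TMM gene set were chosen with earlier results of these data known. Named with full values were the members at the ends of each measure's range and RPSA, FAU, RPS6, RPS12, RPS27A and RPS4X. Promoter-table sequences are from RefSeq, and gene coordinates from its GRCh38 annotation. Values of some single members are not reported here.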

Additional observations from a re-analysis of the deposited data

How the results depend on the processing

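In starved against complete medium, the medians and counts of members called lower in footprints and translation efficiency kept their direction, with counts within 1.5 times, under every scaling, count minimum and pseudocount tried. Using 1 knockdown input for both media says nothing here, since the input then cancels and the translation efficiency values equal those of footprints. In input RNA 1 member was called lower with a count minimum of 10 or of 1 in each library, where 0 had been.

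In knockdown against control the input RNA median of 0.01 lay near 0 and became -0.12 with total counts, -0.036 with DESeq2 size factors, -0.0082 with TMM over other protein-coding genes, -0.044 with TMM over all genes (added after the data were seen) and -0.016 with either lower minimum. The translation efficiency median of -0.14 became 0.037 with the other knockdown input. With total counts 1 member was called lower in footprints (0 with TMM) and 3 in translation efficiency (1 with TMM). The median of all genes also moved down under that scaling, to -0.34 in footprints and -0.23 in translation efficiency. The share of all genes called with total counts is not given here, so these member counts cannot be set against it. With total counts 162 values of single members stayed within their interval and 6 did not, all of these in footprints. Of the nuclear protein-coding counts the members held 2.04%, 1.94% and 1.66% in input RNA and 0.780%, 0.711% and 1.51% in footprints, and with pseudogenes added they held 1.02% of the footprints of the fed knockdown. The causes were not tested. No paired analysis was possible because each condition has 1 library per assay.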

Other observations

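Among protein-coding genes on none of the lists, 175 measured genes had a TOP start by the same rule. Their median translation efficiency ratio of starved to complete medium was -0.25, with 27 called lower. Over all genes measured 9.56% were called lower. The 2093 without one had a median of 0.12, with 136 called lower.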
